A study of Mus musculus with 9 samples.

Results

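Signal from an antibody against NR4A2 was examined at 9 genes of the Hippo pathway in mouse heart ventricle: the TEAD transcription factor genes Tead1, Tead2, Tead3 and Tead4, the coactivator genes Yap1 and Wwtr1, the TEAD cofactor gene Vgll4, and the kinase genes Lats1 and Lats2. A region belonged to a gene when it touched the RefSeq span of that gene (build GRCm38) extended by 10 kb on each side. This gave 13 of the 16884 regions of the deposited table, at 7 of the 9 genes. Signal was measured by chromatin immunoprecipitation with sequencing (ChIP-seq) with an antibody against NR4A2 (clone 9D12) in 6 mice. The 3 Nr4a2-icTg mice carried a conditional Nr4a2 knock-in at ROSA26 together with the Myh6-driven, tamoxifen-inducible Cre recombinase αMHC-MerCreMer, so that NR4A2 is switched on in cardiomyocytes, the cells in which the Myh6 promoter is active. The 3 control littermates carried αMHC-MerCreMer without induced NR4A2. No input library was compared, so whether signal found in both groups is NR4A2 binding was not tested. All 6 were 8 to 9 weeks old at the single injection of tamoxifen (40 mg/kg) and were studied on day 3. Values are CPM, read counts scaled so that the reads in regions of every library sum to nearly the same total, and n = 3 mice in each group throughout.

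The Hippo pathway is a kinase cascade that restrains organ growth. LATS1 and LATS2 phosphorylate the coactivators YAP1 and TAZ (the product of Wwtr1), which then stay in the cytoplasm. Unphosphorylated YAP1 and TAZ enter the nucleus and bind TEAD proteins, which recognise DNA but need a coactivator, and VGLL4 competes with them for TEAD. In heart muscle, YAP1 is known for its part in cardiomyocyte proliferation, and TEAD1 binds the M-CAT elements of muscle genes. NR4A2 is a nuclear receptor that binds the element AAAGGTCA as a monomer.

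Regions touched the promoter windows of 5 of the genes, and their sequences are shown because these are the windows of the 9 genes at which signal was listed. A window runs from 250 bases before to 50 bases after a RefSeq start site (RefSeq, build GRCm38.p6), and 7 of the 9 genes matched, all but Tead1 and Tead4. Each line gives the 250 bases before the outermost start site, 5′ to 3′ on the strand of the gene. Capitals mark GGAATG or its reverse complement, the core of the M-CAT element that TEAD proteins recognise.
Yap1 (chr9:8004597-8004846, minus strand): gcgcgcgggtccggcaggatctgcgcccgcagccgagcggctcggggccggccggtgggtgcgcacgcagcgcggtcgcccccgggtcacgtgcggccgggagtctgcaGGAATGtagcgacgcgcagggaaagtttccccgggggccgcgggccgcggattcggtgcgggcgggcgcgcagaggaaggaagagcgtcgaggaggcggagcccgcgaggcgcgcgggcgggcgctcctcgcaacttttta
Wwtr1 (chr3:57575911-57576160, minus strand): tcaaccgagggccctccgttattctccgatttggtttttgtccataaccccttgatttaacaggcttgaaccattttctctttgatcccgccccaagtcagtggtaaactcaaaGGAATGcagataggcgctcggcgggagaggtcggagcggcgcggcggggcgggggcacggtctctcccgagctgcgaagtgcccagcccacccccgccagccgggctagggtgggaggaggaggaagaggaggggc
Lats1 (chr10:7680959-7681208, plus strand): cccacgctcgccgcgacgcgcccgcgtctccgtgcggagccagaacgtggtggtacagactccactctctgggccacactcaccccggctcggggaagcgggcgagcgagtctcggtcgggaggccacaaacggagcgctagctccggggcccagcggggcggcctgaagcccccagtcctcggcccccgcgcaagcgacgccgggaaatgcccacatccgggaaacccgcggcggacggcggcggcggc
Lats2 (chr14:57746124-57746373, minus strand): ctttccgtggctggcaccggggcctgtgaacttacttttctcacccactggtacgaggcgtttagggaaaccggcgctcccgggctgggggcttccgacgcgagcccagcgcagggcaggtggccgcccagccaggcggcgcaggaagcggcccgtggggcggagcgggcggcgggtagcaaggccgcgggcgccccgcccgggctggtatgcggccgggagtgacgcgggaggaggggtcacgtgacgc
Tead3 (chr17:28350806-28351055, minus strand): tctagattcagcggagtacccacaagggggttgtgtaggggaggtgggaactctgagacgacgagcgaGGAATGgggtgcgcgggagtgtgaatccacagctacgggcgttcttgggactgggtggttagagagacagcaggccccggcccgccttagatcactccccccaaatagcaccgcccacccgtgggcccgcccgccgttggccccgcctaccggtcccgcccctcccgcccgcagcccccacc

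The whole windows of Yap1, Lats1 and Lats2 shown here were 74.0%, 73.0% and 71.7% G or C and held 49, 42 and 37 CpG pairs. Those of Tead3 and Wwtr1 were 67.7% and 61.7% G or C and held 25 and 20. For comparison, the 8399 RefSeq windows touched by any region had a median of 63.0% and 24 CpG pairs, and the 24418 others had 49.7% and 4. The window of Vgll4, which no region touched, was as rich in CpG (69.7%, 34 pairs), whereas that of Tead2, also without a region, held 13 pairs. None of the 11 windows of the member genes held AAAGGTCA on either strand, which 1.51% of all 32817 windows hold. The shorter AGGTCA, contained in AAAGGTCA, was found at Wwtr1 alone (both of its overlapping windows, 25 bases after the outermost start site), and 16.3% of all windows hold it. GGAATG was found in 7 of the 11 windows, several of which overlap, at Yap1, Wwtr1, Lats2, Tead3 and Vgll4, and 14.7% of all windows hold it. At Lats2 the match began 4 bases after the start site, outside the bases shown. A match of letters is a description, not a binding site.

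With NR4A2, signal rose at 2 regions deep within Tead1 and Yap1 and fell at 1 region across the lower-coordinate end of Tead1. The annotation used gives no strand for Tead1, so this end may be its start. The other 10 of the 13 regions did not pass the test. Calls are from limma over all 16884 regions (Benjamini-Hochberg adjusted p under 0.05), which called 14.7% of all regions higher and 3.17% lower. The 2 higher and 1 lower of 13 are therefore near the background share, with a median log2 change of -0.14 against -0.06 over the whole table. Shares called differed with the place of a region. Across the table, 1.21% of regions touching a promoter window were called higher and 4.3% lower, against 22.6% and 2.54% of regions touching none, a class that also holds promoters missing from the window table. The median log2 change was -0.19 in regions touching a window and 0.15 in regions touching none. Of the 6 member regions that touched a window, none was called (5 lay at the start of a member gene), and both higher regions lay within a gene and touched no window. Tead1 has no window, so its lower region could not count as touching a window of its own gene. The absence of calls at windows therefore says nothing about the start of Tead1. The groups did not overlap upwards at 3 member regions (19.9% of all regions) and downwards at 1 (11.7%). The authors' deposited table called 2 of the 13 up (14.9% of all regions) and 0 down (1.95%). DESeq2 on recovered reads called 1 higher (12.9% of all) and 0 lower (1.49%), and edgeR 3 higher (15.2%) and 1 lower (3.43%).

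**Figure D1:**
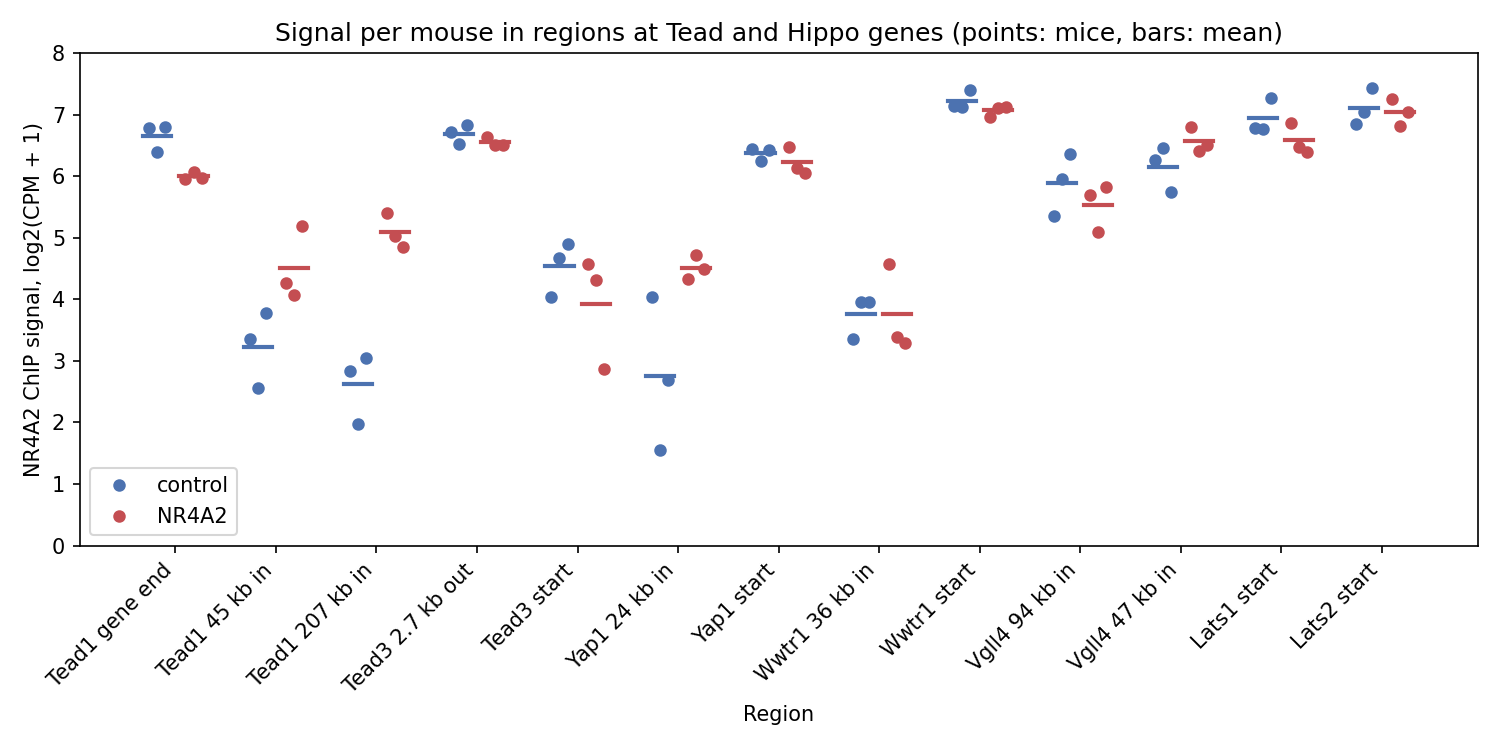
NR4A2 ChIP signal as log2(CPM + 1) in each of the 13 regions, with 1 point per mouse (blue, 3 control; red, 3 NR4A2) and bars at the group means. In the regions 207 kb into Tead1 and 24 kb into Yap1 every NR4A2 mouse lies above every control mouse. At the Tead1 gene end (lower coordinate) every NR4A2 mouse lies below every control mouse. At the start regions of Yap1, Wwtr1, Lats1 and Lats2 the groups overlap.

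Tead1, the TEAD gene known for its role in heart muscle, held 3 regions, of which 1 fell, 1 rose and 1 did not pass the test. The first, 915 bp long, crossed the lower-coordinate end of the gene (chromosome 7, 112679016 to 112679930). The annotation used here gives no strand or promoter window for Tead1, so whether this end holds its start was not determined. Its signal was 110, 82.7 and 110 CPM in control mice 1 to 3 and 61.1, 66.2 and 61.8 CPM in NR4A2 mice 1 to 3. All 3 NR4A2 mice were lower than all 3 controls. The means were 100.9 ± 15.8 and 63.0 ± 2.76 CPM (SD), a log2 fold change of -0.66 ± 0.23 (SE, limma adjusted p = 0.0285). The call ended without control mouse 1 (log2 fold change -0.59, limma adjusted p = 0.122), control mouse 3 (-0.59, 0.0912), NR4A2 mouse 1 (-0.64, 0.0782) or NR4A2 mouse 3 (-0.65, 0.0823), and with DESeq2 (adjusted p = 0.0582). In the authors' deposited table this region had an FDR of 0.0291 and was marked unchanged, where the smallest log2 fold change marked as changed was 0.69 in size.

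The third Tead1 region showed the largest change of the 13. It is 266 bp long and lies within the gene, 207 kb from the lower-coordinate end (chromosome 7, 112885974 to 112886239). Control mice had 6.15, 2.92 and 7.24 CPM there, from 6, 3 and 4 reads, and NR4A2 mice had 41.1, 31.5 and 27.7 CPM, from 43, 20 and 22 reads. The lowest NR4A2 mouse was well above the highest control. Signal went from 5.44 ± 2.25 to 33.4 ± 6.86 CPM, a log2 fold change of 2.47 ± 0.53 (limma adjusted p = 0.000224), and the call held with each mouse left out in turn (2.15 to 2.68, adjusted p up to 0.0115).

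The middle Tead1 region (chromosome 7, 112724190 to 112724468), 45 kb from the same end, stood just outside the threshold. It had 9.22, 4.87 and 12.7 CPM in control mice and 18.1, 15.8 and 35.3 CPM in NR4A2 mice. The groups did not overlap, but NR4A2 mouse 3 stood above the other two. The log2 fold change was 1.28 (95% interval 0.22 to 2.33, limma adjusted p = 0.0851), 0.94 without NR4A2 mouse 3, and edgeR on recovered reads gave an adjusted p of 0.0498.

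Within a mouse, ratios of regions do not depend on how libraries were scaled. The inner region 207 kb into Tead1 had 5.61%, 3.53% and 6.56% of the signal at the gene end in the control mice and 67.2%, 47.6% and 44.9% in the NR4A2 mice. The region at 45 kb had 8.41%, 5.88% and 11.5% in controls and 29.7%, 23.8% and 57.1% with NR4A2. Signal at the gene end was itself called lower with NR4A2, so part of the rise in both sets of ratios comes from it. Summed over the 3 regions, Tead1 had 115 ± 21.6 CPM in control and 120 ± 5.73 CPM in NR4A2 mice, a difference smaller than the spread between control mice.

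**Figure D2:**
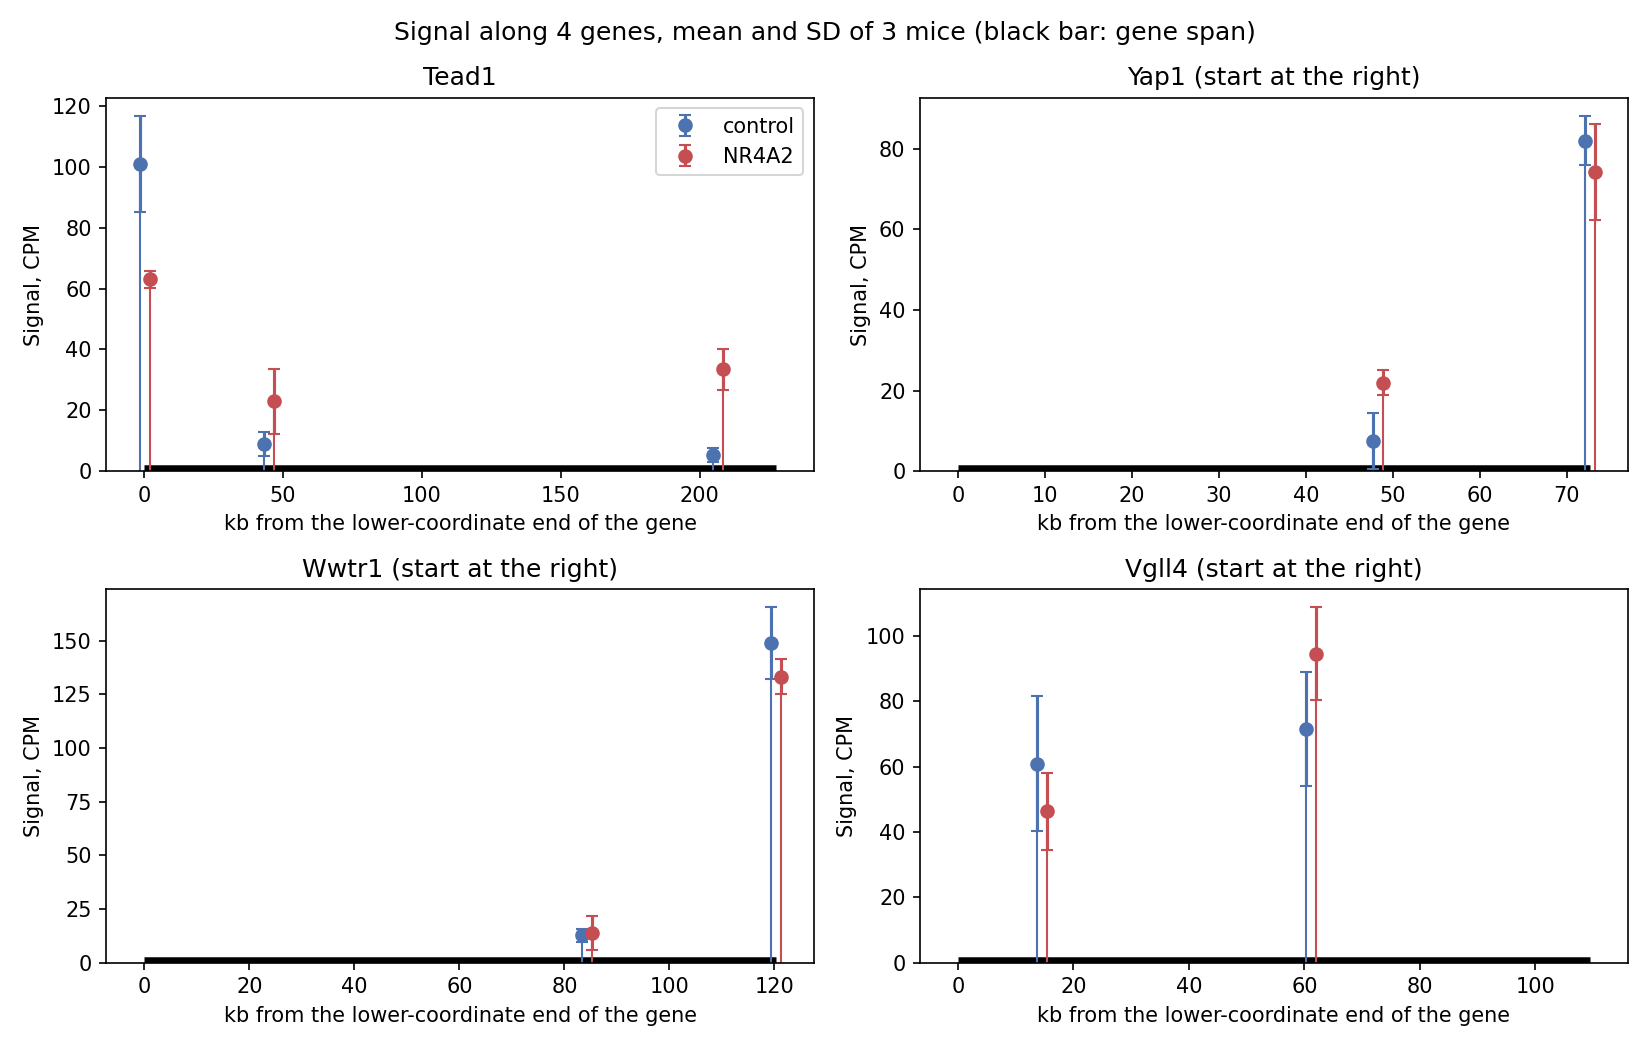
Signal in CPM (mean and SD of 3 mice; blue, control; red, NR4A2; points set apart sideways) against distance in kb from the lower-coordinate end of Tead1, Yap1, Wwtr1 and Vgll4, with the gene span as a black bar. At Tead1 the inner point at 207 kb is higher and the point at the gene end lower with NR4A2, and at Yap1 the inner point is higher while the points at the start overlap.

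Yap1, the coactivator, had 2 regions. The inner region, 219 bp long, lies 24.1 kb from the start site, within the gene (chromosome 9, 7980232 to 7980450). Control mice had 15.4, 1.95 and 5.43 CPM, from 15, 2 and 3 reads, and NR4A2 mice had 19.1, 25.2 and 21.4 CPM, from 20, 16 and 17 reads. The NR4A2 mice were all higher, but control mouse 1 came close to the lowest of them. The log2 fold change was 1.75 ± 0.59 (SE, limma adjusted p = 0.0274). Single control mice moved this value in both directions. Without control mouse 2, with 2 reads, the log2 fold change was 1.15 (limma adjusted p = 0.175), and without control mouse 1, with 15 reads, it was 2.39 (limma adjusted p = 0.00911). The call also ended without NR4A2 mouse 1, 2 or 3 (1.84, 1.65 and 1.76, with limma adjusted p = 0.0678, 0.114 and 0.0933) and with DESeq2 (adjusted p = 0.120).

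The other Yap1 region covered its start site (chromosome 9, 8004347 to 8004964). It had 86.1, 74.9 and 85.1 CPM in control mice and 87.8, 69.4 and 65.6 CPM in NR4A2 mice. The groups overlapped, and the log2 fold change was -0.15 (95% interval -0.60 to 0.30, limma adjusted p = 0.718). Within mice, the inner region had 17.9%, 2.60% and 6.38% of the start region's signal in controls and 21.7%, 36.4% and 32.7% with NR4A2.

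Wwtr1, which encodes TAZ, had the strongest region of the 13 at its start site (chromosome 3, 57575517 to 57576381). Signal there was 140, 138 and 168 CPM in control mice and 124, 137 and 139 CPM in NR4A2 mice. The groups overlapped (log2 fold change -0.15, 95% interval -0.52 to 0.21, limma adjusted p = 0.634). This region stood at percentile 94.2 of all regions by mean CPM. The inner region, 35.7 kb from the nearer start site (chromosome 3, 57539892 to 57540154), had 9.22, 14.6 and 14.5 CPM in controls and 22.9, 9.46 and 8.83 CPM with NR4A2, so only NR4A2 mouse 1 was above the controls. Its log2 fold change was 0.00 with a wide interval (-1.10 to 1.10), and 6 to 24 reads per mouse did not allow a closer statement.

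Lats1 and Lats2, the kinases that restrain YAP1 and TAZ, each had 1 region, over the start site. The Lats1 region (chromosome 10, 7680880 to 7681665) also touched a promoter window of Pcmt1, so its signal cannot be assigned to Lats1 alone. It had 110, 108 and 154 CPM in control mice and 116, 88.3 and 83.2 CPM in NR4A2 mice. NR4A2 mice 2 and 3 were below all controls but NR4A2 mouse 1 was not (log2 fold change -0.36, 95% interval -0.77 to 0.04, limma adjusted p = 0.234). The Lats2 region (chromosome 14, 57745622 to 57746634) had 114, 131 and 172 CPM in controls and 152, 112 and 131 CPM with NR4A2. The groups overlapped, with NR4A2 mouse 2 just below and control mouse 3 above all mice of the other group (log2 fold change -0.07, 95% interval -0.45 to 0.31, limma adjusted p = 0.854).

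Vgll4, the cofactor that competes with YAP1 for TEAD, had no region at its start site but 2 within the gene, 47.1 and 93.8 kb from it. The nearer one (chromosome 6, 114921555 to 114922096) had 75.8, 86.6 and 52.5 CPM in control mice and 111, 83.5 and 89.6 CPM in NR4A2 mice. NR4A2 mouse 2 was below control mouse 2, and the difference did not pass (log2 fold change 0.42, 95% interval -0.03 to 0.87, limma adjusted p = 0.217). The farther one (chromosome 6, 114874870 to 114875418) had 40.0, 61.3 and 81.5 CPM in controls and 50.6, 33.1 and 55.5 CPM with NR4A2 (log2 fold change -0.36, 95% interval -0.92 to 0.20, limma adjusted p = 0.431). Both were moderate in strength, at percentiles 82.1 and 65.6 of mean CPM, unlike the inner regions of Tead1, Yap1 and Wwtr1, which lay between percentiles 4.50 and 20.5.

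No region at the other TEAD genes passed the test. At Tead3 a weak region lay over the start site (chromosome 17, 28350690 to 28350964), with 15.4, 24.3 and 29.0 CPM in controls and 22.9, 18.9 and 6.31 CPM with NR4A2. Only NR4A2 mouse 3, with 5 reads, was below all controls (log2 fold change -0.61, 95% interval -1.54 to 0.32, limma adjusted p = 0.418). The stronger region counted for Tead3 lay 2749 bp outside the gene, over a promoter window of Rpl10a, a ribosomal protein gene (chromosome 17, 28328321 to 28328922). It had 105, 90.5 and 112 CPM in controls and 98.3, 89.8 and 89.6 CPM with NR4A2 (log2 fold change -0.14, limma adjusted p = 0.712). Tead2 and Tead4 had no region within 10 kb, and the nearest regions of the table lay 61.1 and 83.5 kb outside these genes. The table lists regions only, so signal at these genes was not measured.

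**Figure D3:**
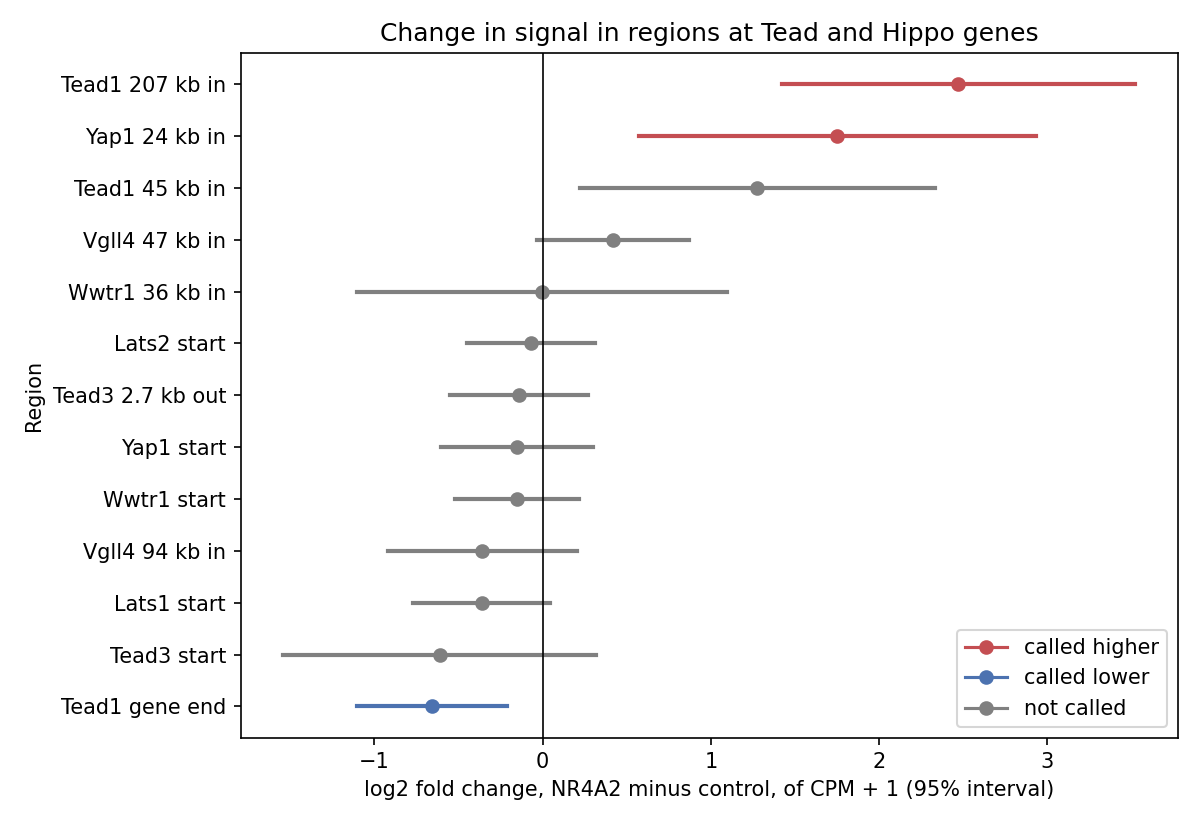
Log2 fold change (NR4A2 minus control, of CPM + 1) with its 95% interval in the 13 regions, sorted by size; red was called higher, blue lower and grey not called. The inner regions of Tead1 (2.47) and Yap1 (1.75) stand to the right of 0, and the Tead1 gene end (lower coordinate, -0.66) to the left. The regions at the starts of Yap1, Wwtr1, Tead3, Lats1 and Lats2 have intervals that include 0.

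Levels were compared per kb of region length. In control mice the start region of Wwtr1 (172 ± 19.4 CPM per kb), the region near Rpl10a (170 ± 18.3), and the start regions of Lats1 (158 ± 33.1), Lats2 (137 ± 29.5) and Yap1 (133 ± 9.96) led the order. Neighbours in that order had overlapping ranges over mice. The Tead1 gene end followed at 110 ± 17.2 CPM per kb, after the Vgll4 regions at 132 ± 32.2 and 111 ± 37.8, and the inner Tead1 region at 207 kb was the lowest at 20.4 ± 8.45. With NR4A2 that inner region had 126 ± 25.8 CPM per kb, in the range of the start regions of Lats1 (122 ± 22.1), Lats2 (130 ± 19.7) and Yap1 (120 ± 19.3). The Tead1 gene end then had 68.9 ± 3.02 CPM per kb, below every NR4A2 value of the start regions of Yap1, Wwtr1, Lats1 and Lats2. It was not below the start region of Tead3, which had 83.2 ± 25.1 CPM per kb in control and 58.3 ± 31.5 in NR4A2 mice. Ranges over mice of these regions of Tead1 and Tead3 overlapped in both groups.

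The regions with the pattern closest to the inner Tead1 region at 207 kb, by Euclidean distance of log2(CPM + 1) over the 6 mice, lay at Mreg (distance 0.40), Kcnh7 (0.43), Mgat5 (0.48), Prkca (0.60) and Apbb2 (0.71). Among them, the region at Prkca, which encodes protein kinase C alpha, had 5.70 ± 3.11 CPM in control and 34.5 ± 5.30 CPM in NR4A2 mice.

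Other genes of the pathway were taken from lists of 53 genes, of which 47 had a region. At least 1 higher region was found at 8 of the 47 genes and a lower one at 3, and 36 had neither. Of all 11154 genes with a region, 14.2% had a higher one and 6.25% a lower one. Their regions had a median change of -0.03 (log2).

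Among 26 upstream and core genes with a region, signal rose at 3 and fell at 1. At Ptpn14, a phosphatase that binds YAP1, 1 of 2 regions (chromosome 1, 189873607 to 189874312) had 15.5 ± 3.53 CPM in control and 85.3 ± 29.6 CPM in NR4A2 mice (a change of 2.34 ± 0.33 SE on the log2 scale, limma adjusted p = 5.90e-08). This region also lies within 10 kb of Smyd2. At Map4k2, a kinase that can activate LATS, 1 of 4 regions, also within 10 kb of Sf1, had 23.7 ± 6.45 CPM in control and 84.4 ± 13.2 CPM in NR4A2 mice (1.81 ± 0.30, limma adjusted p = 1.82e-06). Both calls held with each mouse left out. Amot encodes angiomotin, which binds YAP1 at cell junctions, and its only region rose from 8.83 ± 5.90 to 31.1 ± 14.8 CPM (1.79 ± 0.51), a call that ended without NR4A2 mouse 3 (1.44, limma adjusted p = 0.122). Sav1 encodes the scaffold of the MST kinases. Its only region had 134, 104 and 181 CPM in control and 103, 61.5 and 76.9 CPM in NR4A2 mice, so the groups did not overlap (log2 fold change -0.78 ± 0.21, limma adjusted p = 0.00416). Without control mouse 3 it was -0.58 (limma adjusted p = 0.0623). The median over this list's 48 regions was -0.24.

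Among the cofactor genes, 3 of 7 had a region. At Mef2c, a muscle transcription factor gene, 1 of 7 regions rose (log2 fold change 1.53 ± 0.52 SE, limma adjusted p = 0.0272), and at Mef2a 1 of 2 fell (-0.44 ± 0.16, limma adjusted p = 0.0481). Each of these calls ended with any of 5 mice left out (limma adjusted p up to 0.118 and 0.218; only leaving out control mouse 1 kept them) and with DESeq2 (0.0515 and 0.0823).

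All 18 genes listed as known targets of YAP1 and TEAD had a region, and 4 had a higher and 1 a lower one. Ccn1, a matricellular protein gene and a standard YAP1 target, had 3 of 5 regions higher. The strongest change there, 3794 bp outside the gene, was from 12.3, 2.92 and 16.3 CPM in control mice to 35.3, 42.6 and 42.9 CPM in NR4A2 mice (log2 fold change 2.09 ± 0.46, limma adjusted p = 0.000355), and it held with each mouse left out. The other Ccn1 calls were from 62.7 ± 32.1 to 122 ± 19.9 CPM and from 43.2 ± 11.2 to 74.9 ± 7.22 CPM, and the latter ended without NR4A2 mouse 2, NR4A2 mouse 3 or control mouse 3 (limma adjusted p = 0.0621, 0.112 and 0.129). At Actc1, cardiac actin, all 3 regions were higher (0.68, 0.82 and 1.00), the first not without NR4A2 mouse 1 (0.53, limma adjusted p = 0.0534). These regions follow closely on each other (chromosome 2, 114045108 to 114053478, 114053792 to 114055357 and 114055737 to 114058747). The called regions of Ccn1 also lie near each other (chromosome 3, 145642852 to 145648428), so regions of a gene are not separate loci. The single region of Nppb, the gene of brain natriuretic peptide, rose from 204 ± 64.4 to 340 ± 62.9 CPM (0.77 ± 0.18, limma adjusted p = 0.00132). At Tgfb2, a growth factor gene, 1 of 2 regions rose (1.22 ± 0.41, limma adjusted p = 0.0274). At Cdc42ep3 1 of 3 fell (-1.08 ± 0.34, limma adjusted p = 0.0156). Without NR4A2 mouse 3 the adjusted p at Tgfb2 was 0.237 (also lost without NR4A2 mouse 1, control mouse 1 or control mouse 2). At Cdc42ep3 it was 0.0791 without NR4A2 mouse 1 and 0.0898 without control mouse 2. The median over this list's 42 regions was 0.25. It was 0.32 over the regions of the cardiomyocyte marker genes given below, and 0.15 over all regions touching no promoter window. A rise particular to this list is therefore not shown.

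**Figure D4:**
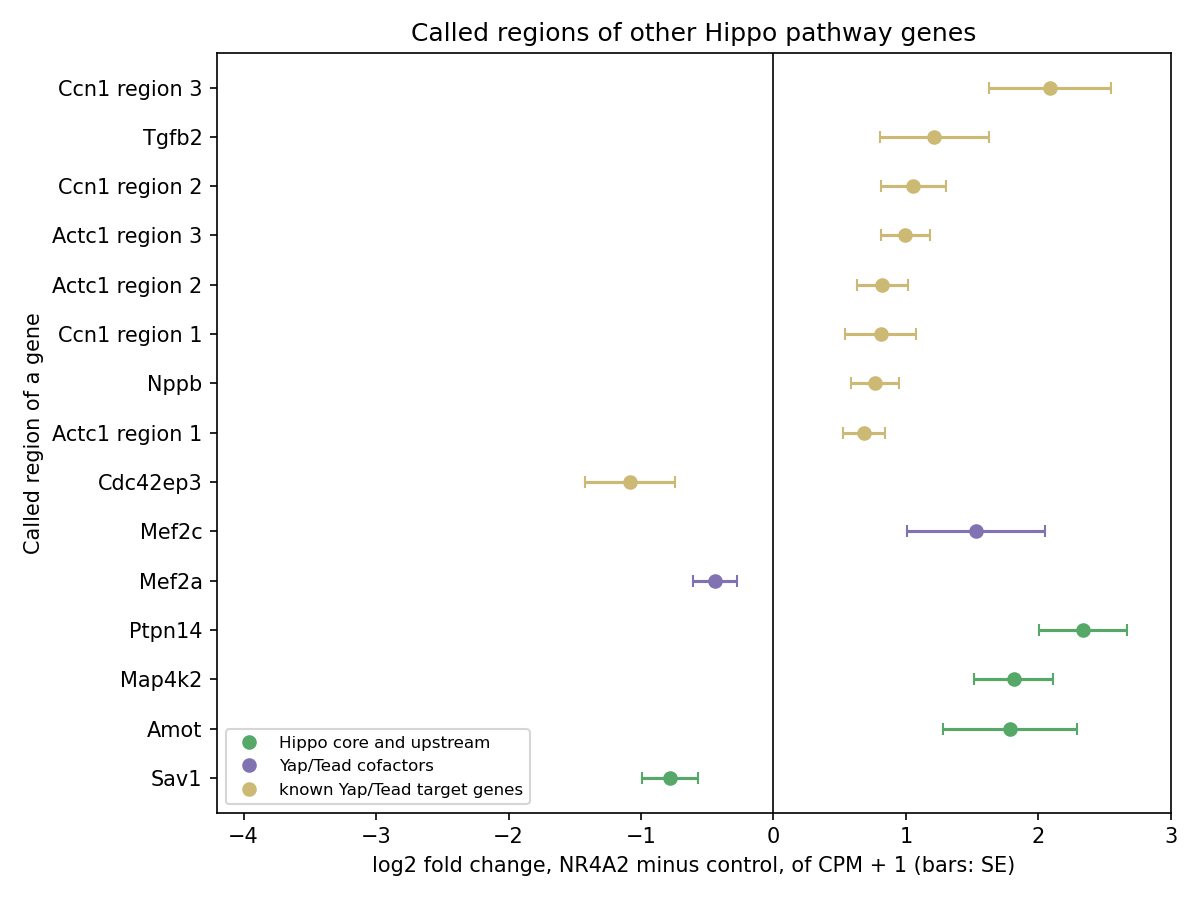
Log2 fold change (NR4A2 minus control, of CPM + 1) with its SE at the 15 called regions of other Hippo pathway genes, coloured by list; several regions of a gene are numbered from the smallest change upwards. The upstream genes Ptpn14, Map4k2 and Amot, the cofactor gene Mef2c and the target genes Ccn1, Actc1, Tgfb2 and Nppb lie to the right of 0, and Sav1, Mef2a and Cdc42ep3 to the left.

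Depth and tissue bear on all of these values. Libraries held 549700 to 1027394 reads in regions in control and 637635 to 1035856 in NR4A2 mice, so 1 read was worth 0.955 to 1.81 CPM and the weak inner regions rest on 2 to 43 reads per mouse. The ventricle holds several cell types, and a change in their shares cannot be told apart from a change per cell. ChIP signal is not expression, so the marker genes describe the libraries only. Cardiomyocyte markers had a region at 6 of 6 genes, summing to 25138 to 37608 CPM in control and 31973 to 39334 CPM in NR4A2 mice, and 10 of their 48 regions, at 5 of the 6 genes, were called higher and 2 lower. Over all regions, 14.7% were called higher and 3.17% lower. Of all genes with a region, 14.2% had a higher and 6.25% a lower one. A gene with more regions has more chances of a call. Regions at 4 of 5 endothelial markers (none at Tek) summed to 557 to 667 CPM in control and 396 to 535 CPM in NR4A2 mice, with a lower region at Tie1 and Pecam1. Those at 3 of 6 fibroblast markers summed to 99.6 to 163 and 88.3 to 146 CPM, those at 2 of 4 smooth muscle and pericyte markers to 21.7 to 37.96 and 37.8 to 61.5 CPM, and those at 1 of 4 macrophage markers (Cd68) to 418 to 460 and 340 to 375 CPM. No region was listed at Pdgfra, Dcn, Postn, Tek, Myh11, Rgs5, Csf1r, Adgre1 or Ptprc. The endothelial and macrophage sums were lower with NR4A2 with no overlap between the groups, and the other sums overlapped. The macrophage sum rests on 2 regions counted for Cd68 alone by the 10 kb rule. Other genes near them were not listed, so this signal cannot be assigned to Cd68. For scale, 11.7% of all single regions were lower with no overlap between the groups. Any part of cell type shares in these results was not tested.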

How the data were processed

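NR4A2 ChIP-seq of heart ventricle was deposited as 1 table of 16884 regions with a column for each of 6 mice, matched by name; 3 further samples (antibody test ChIP and input, pooled input) were not analysed here. BWA and build GRCm38 (mm10) are named in the submitters' processing notes. No source used here gives the peak caller, counter or filters. Whether the weak inner regions of Tead1 and Yap1 would be listed without the NR4A2 mice is therefore not known. Per the labels' protocols, each ChIP used 30 µg of chromatin, 5.5 µg of antibody and 200 ng of fruit fly chromatin with 0.4 µg of a fly histone antibody as spike-in. The authors deposited CPM: all values are whole multiples of 1 read (100%, tolerance 0.001), scaled to each library's reads in regions, so a change common to all regions cannot be seen. Whether reads were first reduced to match the fly spike-in is not stated, so the recovered totals may not be the sequenced depth, and the counts without depth scaling share this doubt. The deposited log2 fold change and log2 mean CPM, and the authors' p-value and FDR, are the authors' own comparison, per the file headers.

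limma 3.58.1 (R 4.3.3; trend, robust) was fitted across all regions on log2(CPM + 1), genotype only, with Benjamini-Hochberg adjustment. Fold changes of weak regions on this scale depend on the pseudocount and can differ in either direction from those of read counts. The script was checked on simulated reads. It recovered 39% of 100 regions given a log2 change of 1 and 90% of 100 given a change of 2, with 6 false calls. The changed regions were drawn from all signal levels and were a smaller share than was called in the data. These percentages therefore do not describe the weak regions named here. An uncalled region may still have changed. Alternatives were edgeR 4.0.16 and DESeq2 1.42.0 on recovered reads (whole for 100% of values), pseudocounts 0.5 and 5, a filter, centring, a replicate block and each mouse left out. Named were all called regions of the genes and lists, the strongest, the most changed and those nearest the threshold; all 13 member regions are given. The 9 genes and the lists were chosen with earlier results of these data known; 1 gene of the target list is not reported here and is in no count. Distances are to RefSeq start sites or gene ends; exons and introns were not told apart. With 3 against 3 mice, an exact two-sided permutation test of 1 value cannot go below p = 0.1.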

Additional observations from a re-analysis of the deposited data

How the results depend on the processing

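The rise 207 kb into Tead1 kept its direction and its call under all 14 alternatives run (log2 fold change 1.89 to 2.68, adjusted p up to 0.0115). All of these drew on the same listed regions and the same mice. How regions were chosen is not stated, so regions with few control reads may be listed only through their signal in NR4A2 mice. No alternative could check this. Of the 13 regions, 11 kept their direction throughout. The exceptions were both uncalled, the inner Wwtr1 region (0.17 with edgeR, 0.14 with DESeq2, 0.21 with edgeR and no depth scaling, 0.013 with pseudocount 5, -0.41 to 0.23 with 1 mouse left out) and the Lats2 start (-0.20 to 0.095 with 1 mouse left out). Among the 13 regions, the number called higher was 1 with DESeq2, 1 with edgeR without depth scaling, 1 with limma without trend or robust moderation, 0 with regions of at least median signal (where 8 of the 13 are tested), and 1 to 2 with 1 mouse left out. Extending the genes by 50 kb adds regions beyond the 13, and 4 of the larger set were higher (14.7% of all regions were). The number called lower was 0 with DESeq2, with edgeR without depth scaling, with plain limma, with the stronger regions and in the authors' call, and 0 to 1 with 1 mouse left out. Over all regions, 2475 were higher and 536 lower. These counts were 1420 and 17 with edgeR without depth scaling, 481 and 235 among the stronger regions, 2177 and 251 with DESeq2, 2237 and 132 with plain limma, 2219 and 1040 after centring on each mouse's median, which moves the median log2 fold change by -0.11, and 1577 to 2332 and 270 to 454 with 1 mouse left out, lowest without NR4A2 mouse 3. Among other pathway genes, 8 had a higher and 3 a lower region. These were 3 and 0 without depth scaling, 5 and 1 among the stronger regions, 5 and 1 with plain limma, 7 lower after centring, and 5 to 7 and 1 to 3 with 1 mouse left out, with the fewest higher without NR4A2 mouse 3. The cause of these shifts was not tested.

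The replicate numbers are not stated to pair the mice, and same-numbered mice did not deviate together (correlations -0.07, 0.06 and 0.03 across regions); not every mouse correlated best with its own number. With the number as a replicate block, 2 member regions were higher and 1 lower, as without it, 2540 and 580 of all regions, and 8 and 3 other pathway genes. Where 1 read is worth up to 1.81 CPM, depth limits what can be said of the weak inner regions.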

Other observations

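Beyond 10 kb and up to 50 kb from the member genes, 6 further regions were listed, at Tead1, Tead3, Wwtr1, Vgll4, Lats1 and Lats2. A region 23.1 kb below the lower-coordinate end of Tead1 (chromosome 7, 112656051 to 112656300) had 12.3, 9.73 and 1.81 CPM in control mice and 35.3, 29.9 and 30.3 CPM in NR4A2 mice. Every NR4A2 mouse was above every control (log2 fold change 2.15 ± 0.52 SE, limma adjusted p = 0.00119), and the call held with each mouse left out (1.46 to 2.58). A region 47.8 kb outside Vgll4, at the autophagy gene Atg7, had 13.3, 1.95 and 5.43 CPM in control and 12.4, 36.3 and 39.1 CPM in NR4A2 mice (2.07 ± 0.58, limma adjusted p = 0.00574). NR4A2 mouse 1 was below control mouse 1 there, and the call held with 4 of 6 mice left out in turn (adjusted p up to 0.09996). The other 4 were not called, with log2 fold changes of -0.42 to -0.20.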
